A study of Mus musculus with 6 samples.

Results

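Matricellular proteins are secreted into the extracellular matrix but act mainly as signals between matrix and cell, by binding integrins, syndecans, growth factors and other matrix proteins. Thrombospondins, tenascin-C, periostin, TGF-beta-induced protein and the SPARC family belong to this class, and fibronectin and versican form the provisional fibrillar and hyaluronan-rich matrix in which they are held. In bone, several of them mark the layers around forming bone, periostin being named after the periosteum. The genes described here were chosen by name, as Thbs1, Thbs2, Thbs3, Thbs4, Tnc, Fn1, Postn, Tgfbi, Vcan and Sparcl1. All 10 were found among the 53801 genes counted. The rule itself uses no measured value, but the genes were picked with earlier results of these data known.

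The cells were MC3T3-E1, a pre-osteoblast line of mouse calvarial origin, and RNA was sequenced from 3 Control and 3 Hdac4-knockdown libraries. Control cells carried a lentivirus with a scrambled non-silencing hairpin and Hdac4-knockdown cells a lentivirus with a hairpin against Hdac4, a class IIa histone deacetylase, and both were kept in 5 μg/mL puromycin for 7 days. The labels do not say which of the 3 designed hairpins was sequenced, whereas the study's text names Hdac4-shRNA3, so the knockdown rests on a single hairpin sequence in a pool of selected cells. Its target, shown because it is the agent that separates the groups, is given 5′ to 3′ on the next line.
Hdac4-shRNA3: gcatgaggcacagttgcatga

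The libraries held 29096544 to 31651826 reads counted on genes. Hdac4 was at 40.3 ± 0.412 CPM (SD, n = 3) in Control libraries and 29.6 ± 0.981 CPM (SD, n = 3) in Hdac4-knockdown libraries, where CPM is the count divided by the TMM-scaled library size in units of 1e6 reads. This is 73.7% of the Control level, a log2 fold change of -0.44 (SE 0.057, edgeR adjusted p = 8.98e-07), with no overlap between the groups. Of its 15813 exon bases 3536 are shared with Gm26720 on the opposite strand, and reads of these bases cannot be assigned to either gene. The groups differed widely: 75.1% of the 14531 genes tested were called by edgeR's quasi-likelihood test (adjusted p below 0.05, log2 fold change beyond 0.05), 38.0% higher and 37.1% lower in Hdac4-knockdown libraries. Cell type markers moved as well. Of 7 osteoblast lineage markers 4 could be tested and all 4 were called higher, their summed level running from 396 to 420 CPM in Control and from 10910 to 11490 CPM in Hdac4-knockdown libraries, most of it Col1a1. Runx2, among the 4, was at 69.9 ± 4.64 and 79.5 ± 5.68 CPM (SD, n = 3 each), and its groups overlapped. Alpl, another defining marker, had at most 3 counts in any library. All 6 skeletal muscle markers were called lower, with sums of 896 to 931 CPM in Control and 127 to 146 CPM in Hdac4-knockdown libraries. Des made up most of each sum, at 737 and 102 CPM in the group means. The sums for neural and glial markers were 407 to 422 against 77.2 to 87.9 CPM, for adipocyte markers 27.3 to 29.6 against 3.07 to 4.52 CPM, and for chondrocyte markers 125 to 128 against 168 to 185 CPM. The chondrocyte gain was Col2a1, at 0.827 and 51.1 CPM, while Sox9 was not called (125.7 and 127.4 CPM). Of the neural and glial markers 2 were called higher and 2 lower, and only 1 adipocyte marker could be tested. Endothelial, macrophage and epithelial markers summed to at most 18.3 CPM in any library, and Emcn, Adgre1, Sox10, Acan, Col9a1 and Lep had 0 counts in all 6. The endothelial sums were 0.262 to 0.421 CPM in Control and 3.04 to 3.19 CPM in Hdac4-knockdown libraries. Those of macrophage markers were 13.4 to 16.0 against 15.7 to 18.3 CPM, and of epithelial markers 5.93 to 6.84 against 7.63 to 9.06 CPM. Of those tested, Pecam1, Csf1r and Krt14 were called higher, and Cd68, Cd14 and Krt8 were not called. Sp7, S100b, Pecam1 and Csf1r passed the count filter only through the Hdac4-knockdown libraries, and Pax7 and Nefl only through the Control libraries. A call in the other direction was not possible for these markers. Single markers were named here after their values were seen. The part of these marker shifts in the results below was not tested. In bulk RNA, fewer cells of a type and less RNA per cell cannot be told apart.

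Of the 10 genes, 9 had enough counts to be tested and Thbs4 did not. Postn, Sparcl1, Tgfbi, Thbs3, Fn1 and Vcan were called higher in Hdac4-knockdown libraries, and Tnc, Thbs2 and Thbs1 were called lower. For all 9 the Control and Hdac4-knockdown libraries did not overlap, as was the case for 76.8% of all genes tested, so that a call or a lack of overlap was the usual outcome in these libraries. A log2 fold change beyond 1 in either direction was found for 5 of the 9 and for 27.1% of all genes tested. Postn, Sparcl1 and Tgfbi rose by more than 1 on the log2 scale, as did 16.5% of all genes tested, and Tnc and Thbs2 fell by more than 1, as did 10.6%. Among the genes tested, Postn ranked 180 and Sparcl1 272 from the highest log2 fold change, and Tnc ranked 136 from the lowest. The median log2 fold change of the 9 genes was 0.96, against 0.014 over all genes tested.

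**Figure D1:**
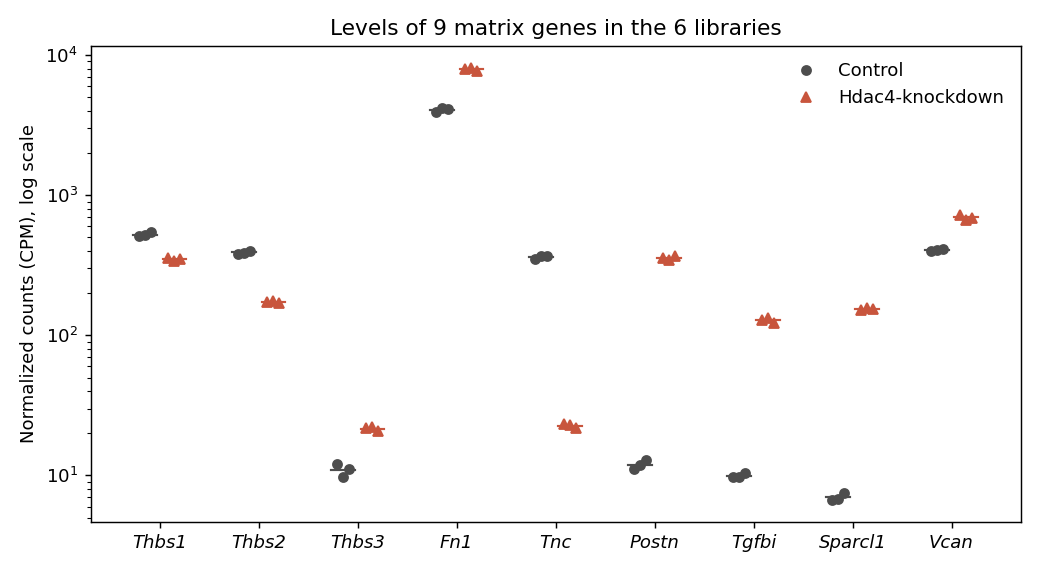
Normalized counts (CPM, log scale) of the 9 tested genes in each library, with circles for Control, triangles for Hdac4-knockdown and bars for the group means (n = 3). The groups do not overlap for any gene, and Postn, Tgfbi and Sparcl1 lie near 10 CPM in Control libraries and above 100 CPM in Hdac4-knockdown libraries; Thbs4, with at most 5 counts, is left out.

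The fasciclin-domain proteins are described first, since they include the largest rise. Postn encodes periostin, which binds integrins and helps collagen fibrils to cross-link. It was counted 337, 354 and 366 times in the Control libraries and 11037, 11185 and 11061 times in the Hdac4-knockdown libraries. The lowest Hdac4-knockdown count is far above the highest Control count. Its level rose from 11.9 ± 0.908 to 357 ± 10.2 CPM (SD, n = 3 each), 30.0-fold, a log2 fold change of 4.91 (SE 0.057, edgeR adjusted p = 8.83e-23). Tgfbi encodes TGF-beta-induced protein, the paralog of periostin, which binds collagen and integrins and was first found as a TGF-beta-induced transcript. It was counted 296, 291 and 298 times in the Control libraries and 3995, 4265 and 3715 times in the Hdac4-knockdown libraries. Both genes were therefore low in all Control libraries and abundant in all Hdac4-knockdown libraries. Tgfbi rose from 9.96 ± 0.434 to 128 ± 4.52 CPM (SD, n = 3 each), 12.9-fold, a log2 fold change of 3.69 (SE 0.0589, edgeR adjusted p = 7.11e-21). Per kilobase of exon, Postn stood at 0.518 ± 0.0211 of the Tgfbi level in Control libraries and at 1.21 ± 0.0775 of it in Hdac4-knockdown libraries (SD, n = 3 each). The order of the pair thus turned, with Tgfbi above Postn in every Control library and Postn above Tgfbi in every Hdac4-knockdown library. Without the scaling to length this ratio was 1.19 and 2.79, and the order did not turn.

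The tested genes whose centred log2 CPM lay nearest to that of Postn over the 6 libraries were Bgn, Prelp and Col1a1, at Euclidean distances of 0.18, 0.212 and 0.222 on the log2 scale. Bgn and Prelp encode small leucine-rich proteoglycans of the collagen matrix and Col1a1 a chain of type I collagen. With 2 groups and 6 libraries this likeness rests almost wholly on the size of the difference between the groups.

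Postn is annotated on the plus strand of chromosome 3 (GRCm38, 54361109 to 54391037) with 9 transcripts, and Tnc on the minus strand of chromosome 4 (63959785 to 64047015) with 4. The 250 bases upstream of the annotated start of each are shown because these are the genes with the largest rise and the largest fall (RefSeq, GRCm38.p6; chr3:54360857-54361106 on the plus strand and chr4:64047016-64047265 on the minus strand). Capitals mark the letters TATAAA.
Postn: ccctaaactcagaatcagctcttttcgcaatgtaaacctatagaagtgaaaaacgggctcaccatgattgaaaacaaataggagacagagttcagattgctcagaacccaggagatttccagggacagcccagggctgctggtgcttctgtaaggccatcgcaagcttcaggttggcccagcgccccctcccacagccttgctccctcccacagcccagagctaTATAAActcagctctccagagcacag
Tnc: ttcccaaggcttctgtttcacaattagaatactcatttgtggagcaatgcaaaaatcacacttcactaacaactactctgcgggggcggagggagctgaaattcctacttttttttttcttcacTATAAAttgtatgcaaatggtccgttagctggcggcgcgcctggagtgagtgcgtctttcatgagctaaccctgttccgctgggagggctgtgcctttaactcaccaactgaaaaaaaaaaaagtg

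In Postn the TATAAA match begins 26 bases before the start, and in Tnc it begins 126 bases before it. Matches were searched on both strands in the 250 bases upstream of the start of the 7 members with a promoter in the table (all but Fn1, Thbs1 and Sparcl1). TATAAA was also found in Thbs2, on the other strand, and is held by 12.4% of the 32851 promoters in the table. CCAAT was found in Thbs2, Thbs3 and Vcan, against 33.8% of all promoters. The AP-1 letters TGACTCA (4.46% of all promoters), the Runx core TGTGGT (14%) and the E-box CAGCTG (13%) were found in 0 of the 7. The GC content of these 7 windows ran from 44.8% in Tnc to 70.8% in Thbs4, around a median of 52.4% over all promoters. Among the tested members with a window, TATAAA was thus in both that fell (Tnc and Thbs2) and in 1 of the 4 that rose (Postn, but not Thbs3, Tgfbi or Vcan). The match in Thbs2 begins 126 bases before the start, as in Tnc, and Thbs1, which also fell, has no window. A link between these letters and the direction of change was not tested. These matches describe sequence and are not sites shown to be bound.

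Sparcl1 encodes hevin, an anti-adhesive relative of SPARC that binds collagen. It was counted 204, 204 and 214 times in the Control libraries and 4711, 5052 and 4607 times in the Hdac4-knockdown libraries. Its level rose from 7.00 ± 0.446 to 154 ± 2.41 CPM (SD, n = 3 each), 22.0-fold, a log2 fold change of 4.46 (SE 0.0599, edgeR adjusted p = 6.68e-22). Sparc, the founding member of the family and an abundant protein of bone matrix, rose less, from 941 ± 15.6 to 1929 ± 31.8 CPM (SD, n = 3 each), and stood at 248 and 509 CPM per kilobase of exon against 2.38 and 52.4 for Sparcl1.

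Tnc encodes tenascin-C, a hexameric glycoprotein that interferes with the spreading of cells on fibronectin. It was counted 10690, 11104 and 10538 times in the Control libraries and 715, 739 and 654 times in the Hdac4-knockdown libraries. Every Hdac4-knockdown library lay below every Control library by more than a factor of 10. The level fell from 364 ± 11.9 to 22.6 ± 0.752 CPM (SD, n = 3 each), 16.1-fold, a log2 fold change of -4.01 (SE 0.0495, edgeR adjusted p = 1.71e-22). Of its 7772 exon bases, 176 are shared with 8030451A03Rik, a transcript of the opposite strand that was counted 63, 83 and 57 times in Control and 7, 0 and 8 times in Hdac4-knockdown libraries. Since the library kit did not mark strand, reads of these bases cannot be assigned to either gene. The nearest patterns to Tnc were those of Nes, which encodes the intermediate filament nestin, Sema6a, a semaphorin gene, and Chrnb1, a subunit of the muscle acetylcholine receptor, at distances of 0.0746, 0.137 and 0.186 on the log2 scale. Nes fell from 1269 to 80.4 CPM and Chrnb1 from 56.7 to 3.43 CPM in mean level.

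The other tenascin genes, which belong to the wider list of matricellular genes below, moved in the opposite direction from Tnc at far lower levels. Tnn, which encodes tenascin-W of bone and periosteum, stood at 0.0892 ± 0.0691 CPM in Control and 6.56 ± 0.223 CPM in Hdac4-knockdown libraries, and Tnr, the tenascin-R gene, at 0.0911 ± 0.0544 and 5.99 ± 0.495 CPM (SD, n = 3 each). Tnxb was at 0.137 ± 0.0956 and 1.77 ± 0.275 CPM. All 3 were called higher. Each had at most 7 counts in any Control library and passed the count filter only through the Hdac4-knockdown libraries. A call lower was therefore not possible for them. Tnr and Tnxb were named here after their values were seen.

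**Figure D2:**
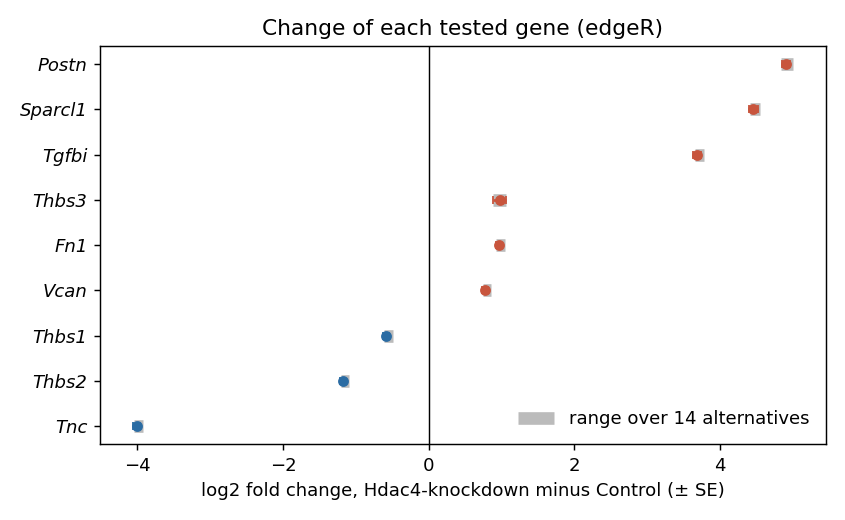
Log2 fold change of each tested gene, Hdac4-knockdown minus Control, with the SE from the edgeR fit as whiskers and grey bars for the range over 14 alternative settings. Values run from -4.01 for Tnc to 4.91 for Postn, and no grey bar reaches 0.

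The thrombospondins split. Thbs1 and Thbs2 encode the trimeric thrombospondins with type 1 repeats, which inhibit angiogenesis through CD36 and bind CD47, and thrombospondin-1 can activate latent TGF-beta. Thbs3 and Thbs4 encode pentameric members that lack these repeats. Thbs1 was counted 15614, 15513 and 15451 times in the Control libraries and 11113, 10998 and 10490 times in the Hdac4-knockdown libraries. It fell from 524 ± 16.3 to 350 ± 9 CPM (SD, n = 3 each), to 66.8% of the Control level, a log2 fold change of -0.58 (SE 0.0392, edgeR adjusted p = 5.58e-11). Thbs2 was counted 11717, 11663 and 11437 times in the Control libraries and 5308, 5649 and 5153 times in the Hdac4-knockdown libraries. It fell further, from 392 ± 9.04 to 173 ± 2.27 CPM (SD, n = 3 each), to 44.1% of the Control level, a log2 fold change of -1.18 (SE 0.0391, edgeR adjusted p = 6.40e-16).

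Thbs3 was counted 370, 290 and 317 times in the Control libraries and 671, 717 and 624 times in the Hdac4-knockdown libraries, so that even the lowest of the latter exceeded the highest of the former. It rose from 10.97 ± 1.22 to 21.6 ± 0.768 CPM (SD, n = 3 each), 1.96-fold, a log2 fold change of 0.97 (SE 0.0863, edgeR adjusted p = 4.14e-09). Thbs3 shares 318 of its 4823 exon bases with Mtx1, a gene for a mitochondrial import protein on the opposite strand. Mtx1 was at 21.6 ± 0.835 CPM in Control and 23.6 ± 1.12 CPM in Hdac4-knockdown libraries and was not called (edgeR adjusted p = 0.0955). Thbs4 had 0 counts in each Control library, which allows up to 3, and 5, 0 and 4 counts in the Hdac4-knockdown libraries. It did not pass the count filter. In a fit without that filter it was called higher (edgeR adjusted p = 0.0456), on the 5 and 4 counts of 2 of the 3 libraries, and the groups overlapped at 0. No fold is given, since a fitted fold against a group at 0 depends on the prior count.

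Within each library, Thbs2 stood at 0.648 ± 0.0055 of the Thbs1 level per kilobase of exon in Control and at 0.429 ± 0.0158 in Hdac4-knockdown libraries (SD, n = 3 each). These ratios do not depend on how libraries are scaled to each other. Of the summed thrombospondin counts per kilobase, Thbs1 made up 59.7% ± 0.231 and Thbs2 38.7% ± 0.212 in Control libraries, and 66.4% ± 0.823 and 28.4% ± 0.693 in Hdac4-knockdown libraries. Thbs3 made up 1.58% ± 0.187 and 5.15% ± 0.199. Summed over the 4 genes, thrombospondin counts numbered 27205 to 27701 in Control libraries and 16271 to 17364 in Hdac4-knockdown libraries.

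**Figure D3:**
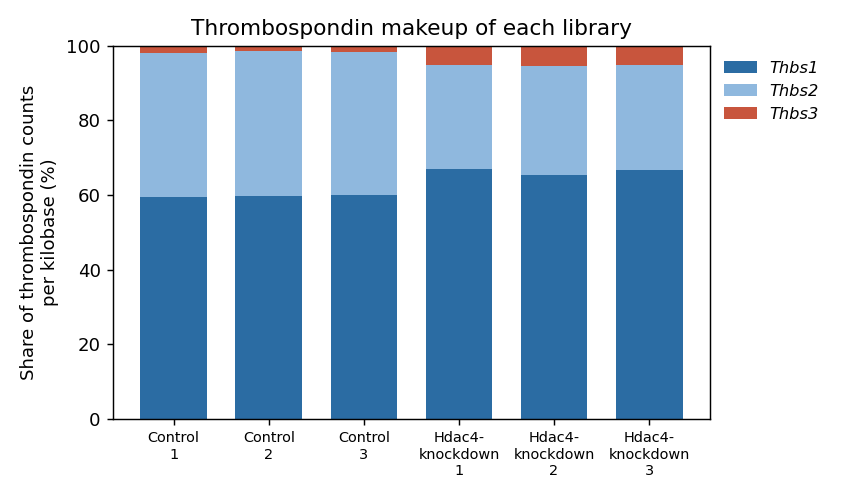
Share of Thbs1, Thbs2 and Thbs3 in the thrombospondin counts per kilobase of exon of each library, in percent. Thbs1 takes 59.5% to 60.0% in Control and 65.5% to 67.1% in Hdac4-knockdown libraries, where the share of Thbs2 is smaller and that of Thbs3 larger; Thbs4 has under 0.1% everywhere and is not drawn.

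The thrombospondin sequences are similar enough to ask whether reads could be shared between them. Aligned coding sequences of Thbs1 and Thbs2 were identical at 67% of aligned bases and those of Postn and Tgfbi at 61.5%. The longest exact run shared by the coding sequences of Thbs1 and Thbs2 was 26 bases, and that shared by Postn and Tgfbi was 20 bases (GENCODE M21, GRCm38). They are shown to make plain how short the longest common stretch is.
Thbs1 and Thbs2: ggagaccgctgtgacaactgccccta
Postn and Tgfbi: tttgctcccaccaatgaagc

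No run of 50 bases in the transcripts of any of the 10 genes occurred in another of the 10. Against all other transcripts, Thbs2, Thbs4, Postn, Vcan and Sparcl1 shared 0 such runs. The shared portion was 1.89% for Thbs1, 3.54% for Thbs3, 1.04% for Tnc, 2.51% for Fn1 and 0.0262% for Tgfbi, so that counts of the members can be told apart by sequence over nearly their whole length.

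Fn1 encodes fibronectin, the dimeric glycoprotein that cells assemble into fibrils and on which collagens are laid down. It was counted 119064, 125445 and 117087 times in the Control libraries and 246063, 262497 and 230135 times in the Hdac4-knockdown libraries. It rose from 4065 ± 152 to 7914 ± 252 CPM (SD, n = 3 each), 1.95-fold, a log2 fold change of 0.96 (SE 0.0374, edgeR adjusted p = 8.51e-15). Fn1 alone held 69.9% to 70.9% of the counts of the 10 genes in Control libraries and 80.2% to 81.4% in Hdac4-knockdown libraries. The 10 genes together took 0.549% to 0.577% of all counts in Control and 0.971% to 1.02% in Hdac4-knockdown libraries. Without Fn1 the other 9 took 0.165% to 0.173% and 0.19% to 0.198%, so that most of the gain in the sum was Fn1.

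Vcan encodes versican, a large chondroitin sulfate proteoglycan that binds hyaluronan. It was counted 12144, 12152 and 11807 times in the Control libraries and 22457, 21574 and 20661 times in the Hdac4-knockdown libraries. It rose from 406 ± 8.41 to 694 ± 28.9 CPM (SD, n = 3 each), 1.71-fold, a log2 fold change of 0.77 (SE 0.0398, edgeR adjusted p = 7.87e-13). Fn1 and Vcan were the members with the smallest rises. Within each library the ratio of Vcan to Fn1 per kilobase was 0.0807 ± 0.00217 in Control and 0.0709 ± 0.00393 in Hdac4-knockdown libraries, whereas that of Tnc to Fn1 was 0.135 ± 0.00121 and 0.00429 ± 6.99e-05 (SD, n = 3 each), a 31.3-fold fall. Vcan, Tgfbi and Thbs4 all lie on chromosome 13, where Vcan spans 89655312 to 89742509 and Thbs4 92751590 to 92794818 on the minus strand and Tgfbi 56609523 to 56639562 on the plus strand (GRCm38). The tested genes next to each of the 9 members on either side by start position, 18 in all, were called in 14 cases, 8 in the direction of the member and 6 in the other, a share close to the 75.1% of all genes tested. Among the 8, Gm26703, 8030451A03Rik and Gm4117 have a gap of 0 bases to Sparcl1, Tnc and Vcan. Mtx1, which shares exon bases with Thbs3, was not among the 18.

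Per kilobase of exon, the order of levels in Control libraries was Fn1 at 348, Thbs1 at 86.3, Thbs2 at 55.9, Tnc at 46.8 and Vcan at 28.1 CPM per kilobase, followed at a distance by Tgfbi at 2.64, Sparcl1 at 2.38, Thbs3 at 2.28 and Postn at 1.37. Only Sparcl1 and Thbs3 overlapped between libraries. In Hdac4-knockdown libraries it was Fn1 at 677, Thbs1 at 57.6, Sparcl1 at 52.4, Vcan at 48, Postn at 41, Tgfbi at 34, Thbs2 at 24.7, Thbs3 at 4.47 and Tnc at 2.91 CPM per kilobase, with no overlap between neighbours. Fn1 and Thbs1 kept the first and second place. Tnc went from the fourth place to the ninth, and Sparcl1 from the seventh to the third.

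**Figure D4:**
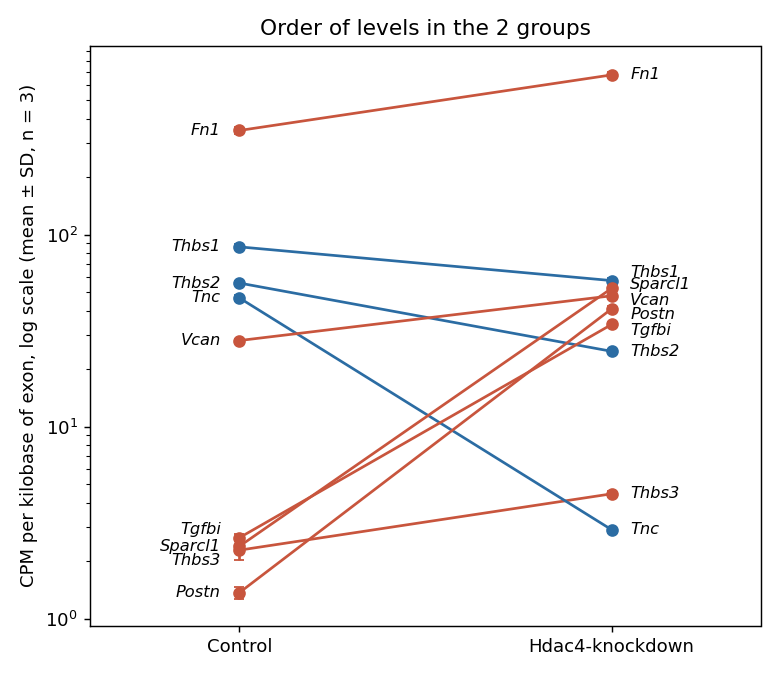
Mean level per kilobase of exon (CPM per kilobase, log scale, whiskers for SD, n = 3) of the 9 tested genes in both groups, in red for genes that rose and in blue for genes that fell. Fn1 stays at the top, from 348 to 677, while Tnc falls from 46.8 to 2.91 and Sparcl1, Postn and Tgfbi climb from under 3 to over 30.

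Related genes were examined as lists, whose counts stand against the 38.0% of all genes tested that were called higher and the 37.1% called lower. Of 20 other matricellular and SPARC-family genes, 17 were tested, 13 were called higher, 3 lower and 1 was not called, with a median log2 fold change of 2.24. Comp, Tnn, Tnr and Tnxb, with at most 7 counts in any Control library, passed the count filter only through the Hdac4-knockdown libraries. Smoc1, named after its values were seen, had 3, 13 and 9 counts in Control and 42, 40 and 43 in Hdac4-knockdown libraries. It would not have passed the filter on its Control libraries alone. The median of 2.24 is the value of Smoc1, includes these genes and is therefore not a measure free of the filter. Under a stricter filter of 10 counts or more in all 6 libraries, 10 were called in place of 16. Spon1, the gene not called, was at 0.666 ± 0.183 and 0.471 ± 0.16 CPM. Apart from Sparc and Tnn, given above, Spp1, which encodes osteopontin, a phosphoprotein of bone matrix, fell from 3154 ± 30.9 to 2046 ± 36.1 CPM (SD, n = 3 each), a log2 fold change of -0.62. Fstl1, a follistatin-like SPARC relative, fell from 416 ± 14 to 388 ± 19.6 CPM (edgeR adjusted p = 0.0436), and its groups overlapped. The CCN genes and Spon1, named here after their values were seen, did not move together. Ccn5 rose from 5.44 ± 0.363 to 177 ± 12.3 CPM and Ccn2, the connective tissue growth factor gene, from 36.4 ± 0.803 to 65.8 ± 3.46 CPM, whereas Ccn1 fell from 302 ± 4.21 to 251 ± 11.1 CPM (SD, n = 3 each).

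Of 19 receptors for these proteins, 11 were called higher, 5 lower and 3 were not called, with a median of 0.41. These include Itga8 and Itga9, which passed the count filter only through the Hdac4-knockdown libraries, and Itga4, which passed it only through the Control libraries. A call in the other direction was not possible for these genes. With at least 10 counts in every library, 13 were called in place of 16. Cd36, the receptor for thrombospondin type 1 repeats, rose from 0.721 ± 0.223 to 10.9 ± 0.373 CPM (SD, n = 3 each), a log2 fold change of 3.91 (SE 0.172). Lrp1, an endocytic receptor that clears thrombospondins, rose from 1874 ± 78.6 to 2833 ± 118 CPM, and Cd44, the hyaluronan receptor, fell from 806 ± 15.8 to 572 ± 43.5 CPM. Cd47 fell from 158 ± 4.08 to 112 ± 10.5 CPM and the syndecan gene Sdc4 from 221 ± 9.49 to 163 ± 12.7 CPM (SD, n = 3 each). Among integrin genes, Itga4 and Itgb6 fell from levels below 3 CPM. Itgb5 rose from 123 ± 14.5 to 359 ± 14 CPM, Itgb3 from 74.3 ± 2.75 to 103 ± 3.46 CPM and Itgb8 from 11.9 ± 1.01 to 25.8 ± 3.34 CPM (SD, n = 3 each). Itgav was called higher, at 249 ± 9.81 and 283 ± 34.5 CPM (SD, n = 3 each), but its groups overlapped. Itga8 and Itga9 rose from at most 4 counts in any Control library to 5.33 ± 0.863 and 3.06 ± 0.598 CPM. The other genes called higher were Sdc2, at 219 ± 9.56 and 449 ± 18 CPM, Sdc3 and Egfr. Itgb1 was at 1178 ± 14.5 and 1218 ± 65.5 CPM and its fibronectin-binding partner Itga5 at 283 ± 11.4 and 288 ± 10.2 CPM. Neither was called (edgeR adjusted p = 0.284 and 0.554), nor was the syndecan gene Sdc1. Apart from Cd36, Lrp1, Cd44 and Itgb1, the receptors were named after their values were seen.

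Of 14 versican relatives and hyaluronan partners 8 were tested, 6 called higher and 2 lower, with a median of 1.09. Tnfaip6, named after its values were seen, had 21, 5 and 17 counts in Control and 84, 97 and 103 in Hdac4-knockdown libraries. It would not have passed the count filter on its Control libraries alone. With at least 10 counts in every library, 7 genes of the list were called in place of 8. The hyaluronan synthases moved apart. Has1 fell from 59.1 ± 2.47 to 1.77 ± 0.164 CPM, a log2 fold change of -5.06 (SE 0.0894), while Has2 rose from 35.6 ± 1.18 to 80.6 ± 5.98 CPM (SD, n = 3 each), a log2 fold change of 1.18. Fbln2, which encodes a fibulin that binds versican and fibronectin, rose from 273 ± 6.61 to 728 ± 33 CPM, and Fbn1, the fibrillin-1 gene, from 179 ± 5.66 to 199 ± 4.48 CPM. Fbln1, named after its values were seen, fell from 59.4 ± 2.09 to 11.2 ± 1.03 CPM. Of the 6 genes for versican-cleaving ADAMTS proteases only 3 were tested. Adamts4 rose from 9.63 ± 0.79 to 21.2 ± 0.521 CPM and Adamts5 from 11.7 ± 0.721 to 16.5 ± 1.62 CPM, and Adamts1 fell from 40.1 ± 1.97 to 25.9 ± 2.24 CPM (SD, n = 3 each).

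Of 12 genes of fibronectin assembly and fibrillar adhesions 11 were tested, 10 were called lower and 1 higher, where 37.1% of all genes tested were called lower, with a median of -0.45. Tns1, a tensin of fibrillar adhesions, fell from 351 ± 6.87 to 159 ± 6.27 CPM, and Vcl, the vinculin gene, from 393 ± 11.7 to 198 ± 6.15 CPM (SD, n = 3 each). Tln1, which encodes the integrin-activating protein talin, fell from 809 ± 32.3 to 561 ± 26.9 CPM. Tgm2, a transglutaminase that cross-links fibronectin, was the exception and rose from 21.04 ± 0.616 to 76.7 ± 4.09 CPM. At a log2 fold change threshold of 1, only Tns1 and Tgm2 of these were called. Ilk, the untested gene, had at most 9 counts in any library.

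Genes of TGF-beta signalling, to which Tgfbi owes its name, showed smaller differences. Of 16 tested, 9 were called higher, 6 lower and 1 was not called, with a median of 0.16 and a range from -0.71 to 1.17. The gene not called was Tgfbr2, a TGF-beta receptor gene, at 117 ± 2.96 and 119 ± 2.26 CPM (named after its values were seen). Smad7, a feedback inhibitor, rose from 36.9 ± 2.78 to 82.8 ± 1.58 CPM and Ltbp3 from 397 ± 4.54 to 814 ± 40 CPM, whereas Ltbp2 fell from 36.8 ± 2.43 to 22.5 ± 1.27 CPM (SD, n = 3 each). Of 6 genes for enzymes that add O-fucose, its glucose cap or C-mannose to thrombospondin repeats, 5 were tested, 3 called higher and 2 lower, with a median of 0.46. Pofut2, the O-fucosyltransferase, rose from 129 ± 5.18 to 177 ± 5.62 CPM and the C-mannosyltransferase gene Dpy19l1 from 124 ± 8.28 to 233 ± 4.16 CPM, whereas Dpy19l3 fell from 41.3 ± 1.56 to 37.0 ± 1.81 CPM and Dpy19l4 from 72.2 ± 6.42 to 53.3 ± 7.43 CPM.

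**Figure D5:**
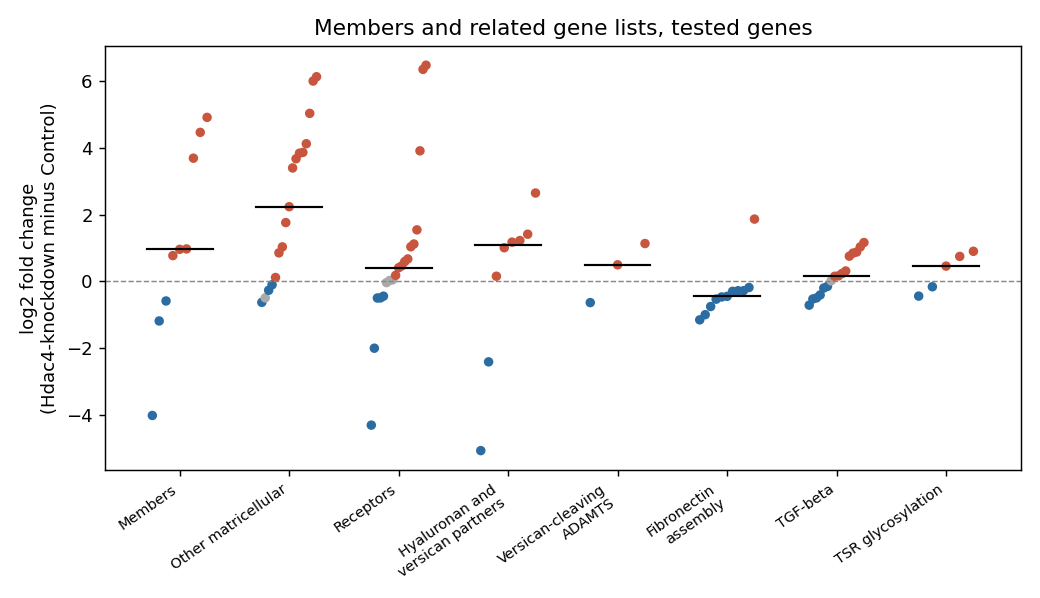
Log2 fold change (Hdac4-knockdown minus Control) of every tested gene of the members and of 7 related lists, in red where called higher, blue where called lower and grey where not called, with black bars for list medians and a dashed line for the median of all genes tested (0.014). The median is below 0 only for the fibronectin assembly genes (-0.45). That of the other matricellular genes (2.24) includes Comp, Tnn, Tnr and Tnxb, which passed the count filter only through the Hdac4-knockdown libraries. It is the value of Smoc1, which would not have passed on its Control libraries alone.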

How the data were processed

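Poly-A RNA of 6 MC3T3-E1 libraries was sequenced as read pairs with a kit that does not mark strand. The authors deposited raw counts per Ensembl gene for each library. The submitters' processing notes name STAR 2.7.3a, HTSeq 0.12.4 and build mm10; the annotation release is not given in the sources used here. Summary lines for reads outside genes (3.17% to 5.07% of counted reads), shared between genes (5.84% to 6.51%) or not unique (3.88% to 4.77%) were left out. Symbols, exon lengths and positions came from GENCODE M21 (GRCm38), which matched 53706 of 53801 identifiers, and promoters from RefSeq (GRCm38.p6).

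Groups were tested on these counts in R 4.3.3 by edgeR 4.0.16 (TMM, filterByExpr, quasi-likelihood F test, Benjamini-Hochberg adjustment over 14531 genes). SE is the log2 fold change divided by the square root of F. Levels per kilobase used merged exons. Exact permutation tests of 3 libraries against 3 cannot go below p = 0.1, and no such p is used for a call. The labels describe 3 independent RNA samples per group and do not say whether they came from separate infections, and p-values measure only the spread between these samples. Replicates differed by more than sampling noise (chi-square per degree of freedom 3.23 to 8.36). Coding sequences were aligned with Biopython 1.88, and figures drawn with matplotlib 3.10.9.

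The members and lists were chosen with earlier results of these data known. Named were all members, Hdac4, the 3 genes nearest in centred log2 CPM (prior count 0.125) to the called members with the largest rise and fall, and from each list the largest called rise and fall among genes with a mean of at least 100 counts and up to 2 more with the highest mean CPM. Exceptions are stated, and 1 gene that the rule names is not reported here.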

Additional observations from a re-analysis of the deposited data

How the results depend on the processing

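All 9 tested members kept their direction and passed the threshold under other normalizations (DESeq2 size factors, library size alone, upper quartile), other filters, DESeq2 1.42.0, limma-voom 3.58.1, the replicate block and the omission of any library. Postn ranged from 4.85 to 5.00 on the log2 scale, Tnc from -4.04 to -3.92, Thbs3 from 0.88 to 1.06 and Thbs1, the smallest change, from -0.61 to -0.49. Upper quartile scaling moved the median log2 fold change of all genes from 0.014 to 0.104 and the calls to 6316 higher and 4608 lower, and library size alone to 5996 and 4891, from 5521 and 5393. Without a count filter 7 members were higher, Thbs4 being the addition (adjusted p = 0.0456), and 3 lower. With a log2 fold change threshold of 1, calls fell to 2397 higher and 1543 lower genes, 3 higher and 2 lower members, 8 receptors, 1 versican-cleaving protease, 2 fibronectin assembly genes, 2 TGF-beta genes and 0 thrombospondin-repeat enzymes. With at least 10 counts in every library, 10 of the other matricellular genes were called, only partly because fewer were tested. Leaving out each library in turn gave 5370 to 5519 higher and 5165 to 5402 lower genes, -0.46 to -0.42 for Hdac4, and 14 or 15 of the other matricellular genes called. With the replicate block, 5523 genes were higher and 5441 lower, with 6 and 3 members; same-numbered libraries deviated from their group means with correlations of 0.0181, 0.159 and -0.00569 across genes, so the numbers were not taken to pair the samples. Ratios and shares do not depend on scaling between libraries but on exon length, without which Thbs2 stood at 0.748 and 0.494 of Thbs1 in Control and Hdac4-knockdown libraries. The call of Thbs4 thus depends on the filter and rests on 5 and 4 counts in 2 libraries.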
